A study of Mus musculus with 6 samples.

Results

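The kinesins are microtubule motor proteins, and the 38 genes described here are the protein-coding genes of the deposited table whose symbol begins with Kif and a digit, out of 30315 genes listed and 18062 protein-coding genes. They were sorted by textbook role into 11 mitotic kinesins, 13 transport kinesins and 14 others. The symbol rule also took in Kif1bp, which encodes a kinesin-binding protein and not a motor. It was kept among the others, and the remaining 13 of those 14 genes, like all 11 mitotic and all 13 transport kinesins, carry a kinesin motor domain in the table's own annotation. The table's gene ontology terms name mitosis, the spindle or cytokinesis for 10 of the 11 mitotic kinesins (not Kif15). They do so for 2 of the 13 transport kinesins, Kif13a and Kif3b, and for 1 of the 14 others, Kif2a. Terms of transport or trafficking are given for 12 of the 13 transport kinesins, 4 of the 11 mitotic kinesins and 4 of the 14 others.

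RNA-Seq was performed on primary renal tubular epithelial cells of C57BL/6 mice in 6 libraries. In 3 of them the cells had been transfected with siSox9, an siRNA against the transcription factor gene Sox9, and in the other 3 with the control siRNA siNC. All 6 cultures then went through hypoxia/reoxygenation (H/R), a culture model of renal ischemia reperfusion: 6 h at 1.0% O2 without glucose and 18 h of recovery in complete medium. The question was how silencing Sox9 changed transcripts of injured tubule cells. There were no uninjured libraries among these 6, the table's siSox9 columns name 1 siRNA, and no label says whether the replicates came from separate animals, so the p-values measure the spread between these libraries.

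Kinesins walk along microtubules or take them apart, using the energy of ATP. One set acts in dividing cells, where these motors push spindle poles apart, hold chromosomes, organize the midzone and finish cytokinesis, and their genes are expressed mostly in the G2 and M phases of the cell cycle. Another set carries vesicles, mitochondria and endosomes, and the heterotrimeric kinesin-2 motors carry cargo along the primary cilium, which renal tubule cells bear. Tubule cells re-enter the cell cycle during repair after injury.

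Promoter sequences are shown first, because most mitotic kinesins with a window held a short element that most other kinesins lacked. The roles and the element were chosen with earlier results of these data known. The element is known from G2 and M phase genes, so its matches are not independent of the sorting. RefSeq windows of 300 bases on GRCm38.p6, from 250 bases before the annotated start to 50 after it, were matched for 31 of the 38 genes, 10 mitotic, 10 transport and 11 others. No window was found for the mitotic Kif20a, the transport kinesins Kif5a, Kif5b and Kif13b, or Kif19a, Kif21b and Kif28 of the others. Both strands were searched for TTTGAA, the core of the cell cycle genes homology region (CHR), an element known from G2 and M phase genes, and for CCAAT, the box bound by NF-Y. In the 150 bases printed below for each gene, 100 before the start and 50 from it on, capitals mark TTTGAA or its complement TTCAAA, and CCAAT or its complement ATTGG. Kif11, Kif4, Kif18b and Kif20b are mitotic kinesins with a CHR core close to the start, and Kif3b is a transport kinesin with a CCAAT box and no CHR core.
Kif11, chr19:37376282-37376431, plus strand: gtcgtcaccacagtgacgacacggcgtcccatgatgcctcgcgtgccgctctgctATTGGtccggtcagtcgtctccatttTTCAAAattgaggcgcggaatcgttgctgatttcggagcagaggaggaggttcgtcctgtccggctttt
Kif4, chrX:100625965-100626114, plus strand: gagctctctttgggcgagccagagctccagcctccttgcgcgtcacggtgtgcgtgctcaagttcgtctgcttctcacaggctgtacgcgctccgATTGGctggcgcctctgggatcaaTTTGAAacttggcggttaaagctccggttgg
Kif18b, chr11:102925075-102925224, minus strand: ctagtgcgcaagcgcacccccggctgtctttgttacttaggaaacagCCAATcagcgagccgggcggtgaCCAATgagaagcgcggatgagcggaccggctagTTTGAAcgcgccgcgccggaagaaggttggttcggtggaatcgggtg
Kif20b, chr19:34922258-34922407, plus strand: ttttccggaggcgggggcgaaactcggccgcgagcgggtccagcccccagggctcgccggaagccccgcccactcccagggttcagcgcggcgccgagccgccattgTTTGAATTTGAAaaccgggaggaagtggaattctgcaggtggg
Kif3b, chr2:153291316-153291465, plus strand: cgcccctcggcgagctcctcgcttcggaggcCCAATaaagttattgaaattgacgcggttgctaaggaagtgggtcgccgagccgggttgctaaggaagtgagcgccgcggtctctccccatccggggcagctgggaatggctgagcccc

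TTTGAA was present in the 300-base window of 9 of 10 mitotic kinesins, all but Kif18a. It was present in 1 of 10 transport kinesins, in a second window of Kif1a, and in 2 of 11 others, Kif26b and Kif27. Of 27025 genes with such windows, 20.2% held it. Within 50 bases of the start on either side it was found in 7 of 10 mitotic kinesins, 1 of 10 transport kinesins, 1 of 11 others and 5.72% of all genes. In Kif11 the element began 19 bases before the start, in Kif4 it began 19 bases after it, and in Kif20b a tandem pair of copies lay just after it. These distances are from the RefSeq start, which for some genes, Kif4 among them, differs from the gene start in the deposited table. CCAAT was present in 6 of 10 mitotic kinesins, 3 of 10 transport kinesins, 5 of 11 others and 41.1% of all genes. CCAAT together with TTTGAA or the variant core TTTAAA was present in 6 of 10 mitotic kinesins, no transport kinesin, 2 of 11 others and 13.4% of all genes. TTCCCGC, the E2F-type element of genes of the G1 to S transition, was found in 0 of 10 mitotic kinesins, 0 of 10 transport kinesins, 2 of 11 others and 5.29% of all genes. A match describes the letters of the window and is not evidence that a factor binds there.

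**Figure D1:**
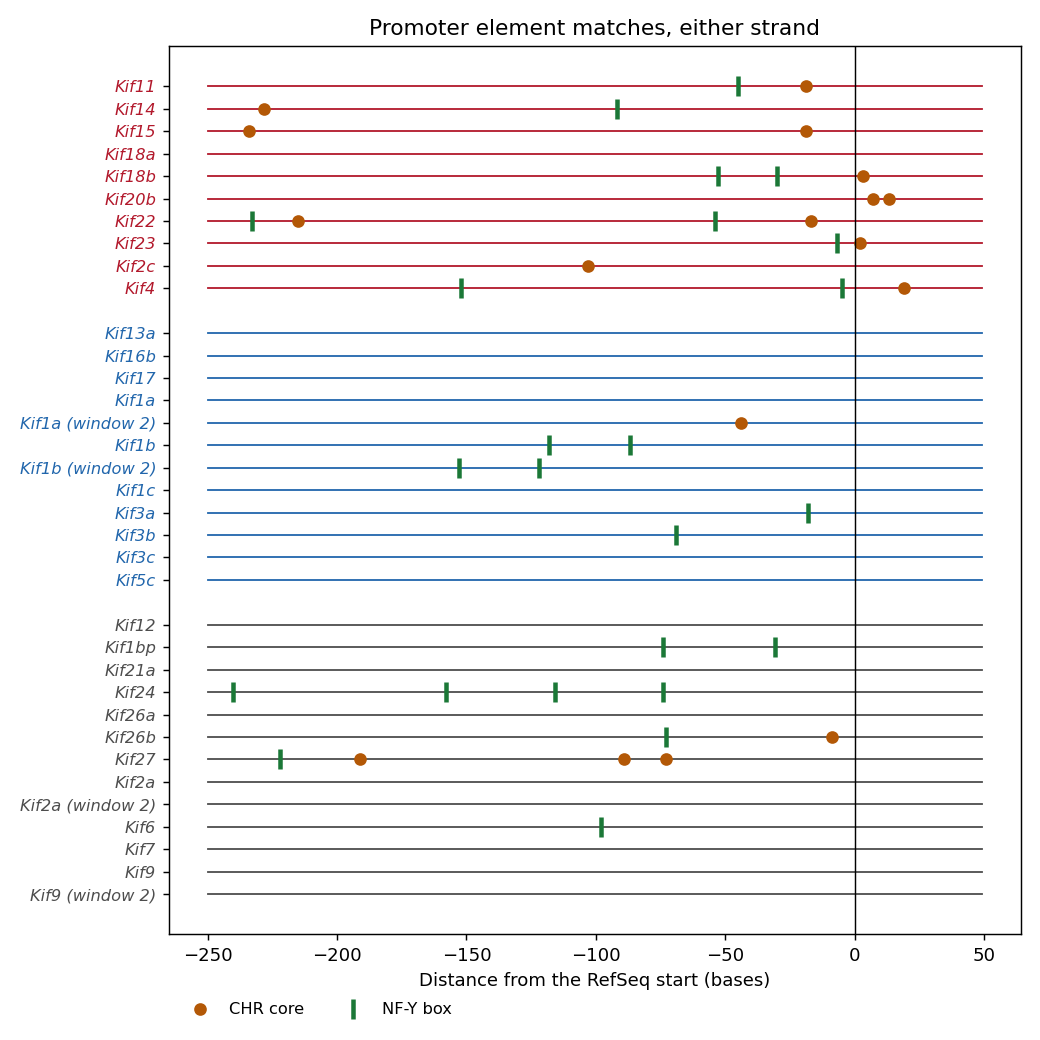
Positions of the CHR core TTTGAA (circles) and of CCAAT (bars) on either strand in the 300-base windows, with the distance from the RefSeq start in bases on the horizontal axis and 1 line per window. Gene names are coloured by role (red mitotic, blue transport, grey other), window 2 is a second annotated start, and circles appear on 9 of the 10 mitotic genes and on 1 of the 10 transport genes.

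The targeted gene was checked first. Sox9 stood at 8.93, 8.61 and 9.07 FPKM in the siSox9 libraries and at 25.7, 26.5 and 25.6 FPKM in the siNC libraries (FPKM, fragments counted on a gene divided by its exon length and by the size of the library, so that levels can be compared between genes). The log2 fold change was -1.45 (limma on log2(FPKM + 1), adjusted p = 7.03e-06), and an exact two-sided permutation test gave p = 0.1, the smallest that 3 libraries against 3 allow. The proliferation markers Mki67 and Top2a were at 55.0% and 58.6% of their siNC mean, with adjusted p = 8.27e-05 and 0.000157 by limma. The depth was similar in all libraries, from 23893197 to 25725743 reads by the value that 1 read takes. Tubule epithelial markers were present, 9 of 12 of them averaging 1 FPKM or more. Of these, 1, Cdh16, was higher with siSox9 and 8 did not pass, while the segment markers Slc34a1 and Aqp2 were near 0 in these cultures. The summed level of 6 fibroblast markers ranged from 6.45 to 7.95 FPKM with siSox9 and from 7.99 to 9.09 with siNC, that of 5 endothelial markers from 2.91 to 3.10 and from 3.22 to 4.12, and that of 6 leukocyte markers from 22.8 to 25.7 and from 23.1 to 24.2. None of the 5 markers in these 3 lists that were tested passed the threshold, Cd68 and Csf1r were the leukocyte markers above 5 FPKM, and the part of such cells in the results was not tested.

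All 9 kinesins sorted as mitotic that could be tested were lower in the siSox9 libraries, while 8 of 11 tested transport kinesins did not pass the test. The count depends on the sorting. With Kif2a and Kif24 also counted as mitotic, 9 of 10 tested were lower, Kif2a not passing (limma adjusted p = 0.0665). With Kif21a and Kif21b also counted as transport, 4 of 12 tested were lower. A gene was tested if its mean over the 6 libraries was at least 1 FPKM, and it was called at a Benjamini-Hochberg adjusted p under 0.05 over all 12009 such genes. Of the 38 kinesins, 25 were tested, 14 were lower, 0 were higher and 11 did not pass. Over all genes tested, 17.6% were lower and 12.8% were higher. The median log2 fold change was -0.55 for the 9 mitotic kinesins (from -0.75 to -0.39), -0.073 for the 11 transport kinesins (from -0.41 to 0.0092), -0.12 for the 5 others and -0.014 for all genes. Kif15, Kif5c and Kif12 reached a mean of 1 FPKM only in the siNC group, so that their calls are not independent of the filter. In bulk RNA, fewer dividing cells and less RNA per dividing cell cannot be told apart.

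Summed over the 11 genes, mitotic kinesin RNA stood at 30.1, 29.8 and 30.2 FPKM in the siSox9 libraries and at 49.4, 47.3 and 49.1 FPKM in the siNC libraries, 61.8% of the control mean. The sum over the 13 transport kinesins was 171, 170 and 167 FPKM with siSox9 and 183, 176 and 177 FPKM with siNC, 94.9% of the control mean. On this scale neither pair of groups overlapped. The sum over the 14 others was 25.6, 26.7 and 24.6 FPKM with siSox9 and 29.3, 28.9 and 30.6 FPKM with siNC. This was 86.6% of the control mean, also without overlap. On the TPM scale, with each library rescaled to the same FPKM sum, the mitotic sums were 105, 104 and 103 with siSox9 against 176, 157 and 160.0 with siNC, while the transport sums overlapped, at 595, 591 and 567 against 652, 585 and 575. The TPM sums of the others did not overlap, at 89.0, 92.8 and 83.9 with siSox9 against 104, 96.4 and 99.7 with siNC. The mitotic share of the mitotic and transport sums together was 14.9%, 14.9% and 15.4% with siSox9 and 21.2%, 21.2% and 21.8% with siNC. This share is a ratio within a library and does not depend on how libraries are scaled against each other.

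**Figure D2:**
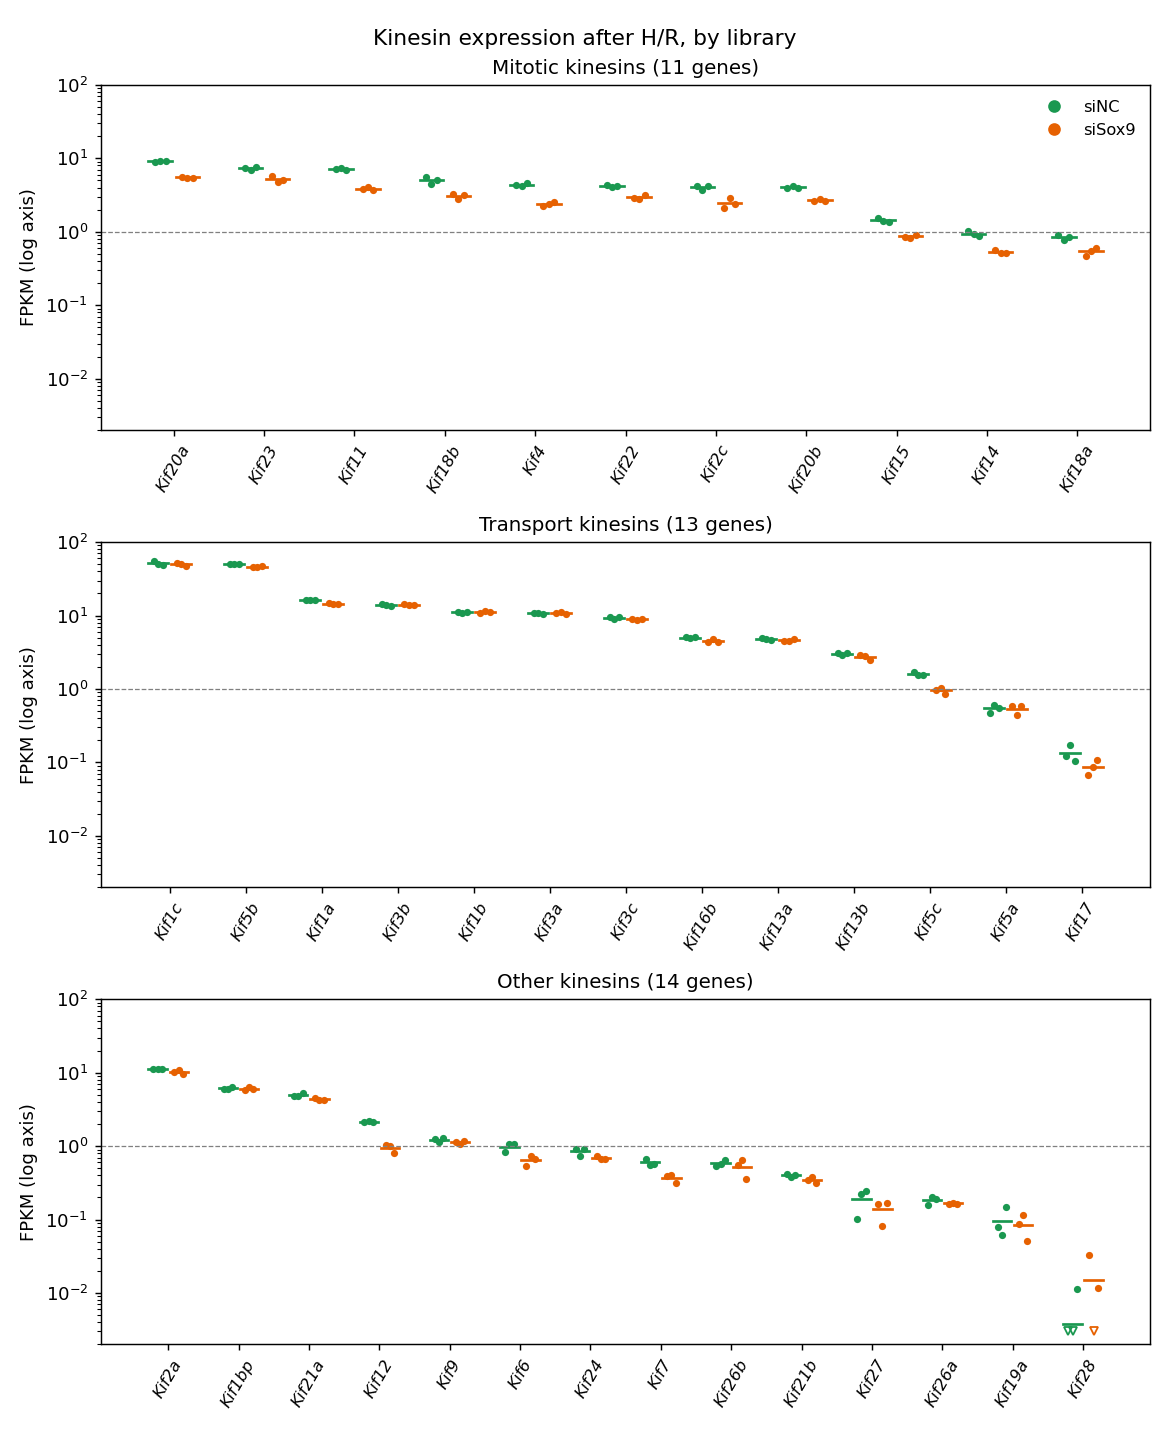
FPKM of the 38 kinesins on a log axis, by role and in falling order of the siNC mean, with 1 point per library (green siNC, orange siSox9), bars at the group means, open triangles at the bottom for values of 0 and a dashed line at 1 FPKM. The mitotic kinesins lie between 0.47 and 9.21 FPKM, with every orange point below every green point of the same gene, while 8 of the 13 transport kinesins overlap.

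Motors that build the spindle fell. Kif11 (Eg5, chr19:37376403-37421859 in the table) slides antiparallel microtubules apart and so separates the spindle poles. Its level was 3.82, 4.11 and 3.71 FPKM with siSox9 and 7.16, 7.32 and 7.05 FPKM with siNC. The groups were far apart, with a log2 fold change of -0.75 (SE 0.044, n = 3 libraries a group, limma adjusted p = 9.9e-05). Kif15, a spindle motor that can take over from Kif11, was expressed at a lower level, 0.843, 0.833 and 0.919 FPKM with siSox9 and 1.54, 1.41 and 1.37 FPKM with siNC. Every siSox9 library lay below every siNC library, and the mean was 60.2% of control (log2 fold change -0.39, SE 0.067, limma adjusted p = 0.00569).

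Of the motors that act on chromosomes and on microtubule plus ends, Kif4, Kif22, Kif2c and Kif18b were lower, and Kif18a was not tested. Kif4 (chrX:100625737-100727214), a chromokinesin of chromosome arms and of the central spindle, stood at 2.21, 2.39 and 2.58 FPKM with siSox9 and 4.38, 4.19 and 4.60 FPKM with siNC. Its highest siSox9 value was well under its lowest siNC value, and its log2 fold change was -0.67 (SE 0.058, limma adjusted p = 0.000337). Of its exon bases, 15.1% are shared with Pdzd11 on the other strand, and strandedness of the libraries is not given in the sources used here. Kif22 (KID), the other chromokinesin, stood at 2.89, 2.78 and 3.15 FPKM with siSox9 and 4.30, 4.03 and 4.19 FPKM with siNC. It kept more of its control level than Kif4, 70.5% against 54.5%, and passed the test (log2 fold change -0.39, SE 0.052, limma adjusted p = 0.00179). Whether those 2 decreases differ from each other was not tested.

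Kif2c (MCAK), which depolymerizes microtubules at centromeres, stood at 2.11, 2.85 and 2.38 FPKM with siSox9 and 4.19, 3.68 and 4.25 FPKM with siNC. It had the largest standard error of the tested mitotic kinesins, but its groups did not overlap (log2 fold change -0.55, SE 0.088, limma adjusted p = 0.00381). Kif18b, a motor of astral microtubule plus ends, stood at 3.29, 2.82 and 3.18 FPKM with siSox9 and 5.59, 4.52 and 5.09 FPKM with siNC. This was 61.1% of control (log2 fold change -0.57, SE 0.076, limma adjusted p = 0.00198). Its relative Kif18a, which damps chromosome movements at the metaphase plate, had a mean under 1 FPKM and was not tested. Its values were 0.474, 0.545 and 0.604 FPKM with siSox9 and 0.893, 0.783 and 0.855 FPKM with siNC, with no overlap.

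The motors of the midzone and of cytokinesis included the 2 most abundant mitotic kinesins, Kif20a and Kif23. Kif20a (MKLP2), which brings the chromosomal passenger complex to the midzone, stood at 5.53, 5.48 and 5.48 FPKM with siSox9 and 8.92, 9.21 and 9.19 FPKM with siNC. The libraries of each group were close together, and the log2 fold change was -0.64 (SE 0.033, limma adjusted p = 6.21e-05). Its exons share 29.3% of their bases with Cdc23 on the other strand. Kif23 (MKLP1), the motor subunit of centralspindlin, stood at 5.68, 4.73 and 5.10 FPKM with siSox9 and 7.41, 7.03 and 7.66 FPKM with siNC. In the siNC libraries Kif23 and Kif11 had similar levels, with overlapping values, and Kif23 retained 70.2% of control where Kif11 retained 54.1% (Kif23 log2 fold change -0.44, SE 0.063, limma adjusted p = 0.00246). Kif20b, a midbody motor, stood at 2.66, 2.79 and 2.62 FPKM with siSox9 and 3.95, 4.16 and 3.97 FPKM with siNC. It fell to 66.8% of control (log2 fold change -0.45, SE 0.045, limma adjusted p = 0.000596). Kif14, which binds citron kinase at the midbody, was under the limit of 1 FPKM and untested, at 0.559, 0.513 and 0.513 FPKM with siSox9 and 1.03, 0.924 and 0.886 FPKM with siNC, again with no overlap.

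For all 11 mitotic kinesins every siSox9 library lay below every siNC library. This held for 5 of 13 transport kinesins and 7 of 14 others. The share of such genes was 26.1% among all tested genes and 7.5% among genes with a value above 0 and a lower mean. Of the 13 kinesins under 1 FPKM, 6 showed it, 2 mitotic and 4 others. As percentages of the siNC mean, the mitotic kinesins ran from 54.1% (Kif11) to 70.5% (Kif22), with a median of 60.6%, while the median over all tested genes was 98.8%.

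**Figure D3:**
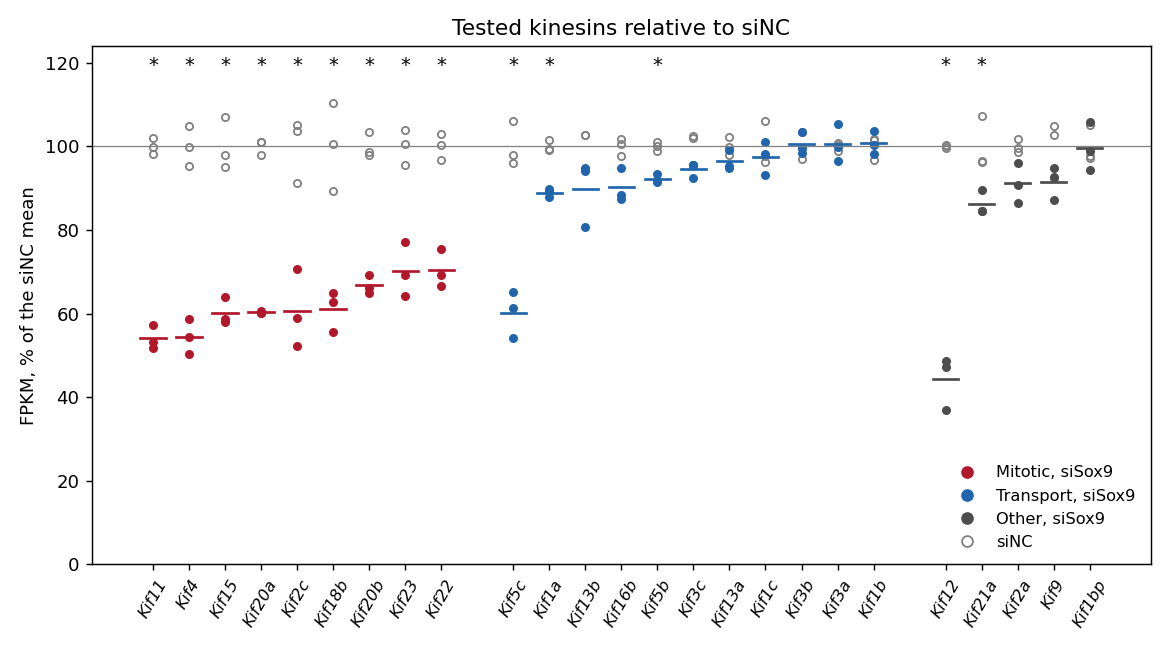
FPKM of the 25 tested kinesins as a percentage of each gene's siNC mean, with 1 filled point per siSox9 library, bars at the siSox9 means, open points for the siNC libraries and an asterisk for an adjusted p under 0.05. The mitotic means lie between 54.1% and 70.5%, and most transport means lie near 100%, Kif5c excepted at 60.2%.

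Among the transport kinesins, the most abundant motors were at or little below the control level. Kif1c, a vesicle motor of the kinesin-3 family, stood at 51.9, 50.4 and 47.8 FPKM with siSox9 and 54.5, 50.2 and 49.4 FPKM with siNC. Its groups overlapped (log2 fold change -0.036, SE 0.048, limma adjusted p = 0.607). Kif5b, the heavy chain of conventional kinesin found in most tissues, stood at 46.2, 46.2 and 47.1 FPKM with siSox9 and 50.5, 49.9 and 51.0 FPKM with siNC. It fell to 92.2% of control, a small decrease past the spread of these libraries (log2 fold change -0.12, SE 0.027, limma adjusted p = 0.0169). The call was lost when libraries were rescaled to equal FPKM sums (TPM, limma adjusted p = 0.22), and the adjusted p was 0.0631 without siSox9 replicate 1, 0.0737 without siSox9 replicate 2 and 0.0654 without siNC replicate 3.

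Kif1a, the motor of synaptic vesicle precursors, stood at 14.6, 14.5 and 14.3 FPKM with siSox9 and 16.5, 16.2 and 16.2 FPKM with siNC. It fell to 88.9% of control (log2 fold change -0.16, SE 0.029, limma adjusted p = 0.00708), a call also lost on the TPM scale (limma adjusted p = 0.12). Kif5c, a conventional kinesin heavy chain best known from neurons, was the exception among the transport motors. Its values were 0.980, 1.04 and 0.867 FPKM with siSox9 and 1.70, 1.57 and 1.54 FPKM with siNC, and the recovered reads were 180, 189 and 148 against 301, 270 and 273. It fell to 60.2% of control, near the mitotic median of 60.6% (log2 fold change -0.41, SE 0.069, limma adjusted p = 0.00491), and no TTTGAA or CCAAT was found in its promoter window.

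Kif3a and Kif3b gave values close to control. These 2 motor subunits of heterotrimeric kinesin-2 stood at means of 10.8 ± 0.484 (SD) against 10.7 ± 0.116 (SD) FPKM and of 14.1 ± 0.362 (SD) against 14.0 ± 0.458 (SD) FPKM, siSox9 against siNC, with overlapping libraries (limma adjusted p = 0.924 and 0.906). Kif1b, a carrier of mitochondria and vesicles, was at 101% of control. Kif3c, Kif13a, Kif13b and Kif16b ran from 89.9% to 96.4% of control and did not pass the test, with the lowest adjusted p for Kif16b (0.068 by limma), a motor of early endosomes. The exons of Kif3c share 40.7% of their bases with genes on the other strand. Kif5a and Kif17 had means under 1 FPKM and overlapping groups, at 98.5% and 65.8% of control.

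The other kinesins included the kinesin with the largest relative decrease. Kif12, a kinesin of kidney and liver epithelium (chr4:63165630-63172131), stood at 1.05, 1.02 and 0.800 FPKM with siSox9 and 2.15, 2.17 and 2.16 FPKM with siNC. The siNC libraries were nearly identical, and the siSox9 mean was 44.2% of control (log2 fold change -0.69, SE 0.071, limma adjusted p = 0.000626). The recovered reads behind these levels were 92, 88 and 65 for siSox9 and 182, 178 and 183 for siNC. Kif12 held neither TTTGAA nor CCAAT in its promoter window.

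Kif2a, a microtubule depolymerase of interphase cells and spindle poles, was the most abundant of this group at 10.2, 10.8 and 9.69 FPKM with siSox9 and 11.4, 11.1 and 11.2 FPKM with siNC. Its groups did not overlap, but it did not pass the test (log2 fold change -0.12, SE 0.043, limma adjusted p = 0.0665). It passed on recovered reads (limma voom adjusted p = 0.0414) and without siSox9 replicate 2 (limma adjusted p = 0.0451), and 19.2% of its exon bases are shared with Dimt1 on the other strand. Kif21a, a regulator of microtubule growth, stood at 4.48, 4.23 and 4.24 FPKM with siSox9 and 4.83, 4.83 and 5.37 FPKM with siNC. It was called lower (log2 fold change -0.18, SE 0.05, limma adjusted p = 0.0365), but 10 of its 12 alternative fits lost the call. Kif1bp was at 5.74, 6.45 and 6.02 FPKM with siSox9 and 5.96, 5.93 and 6.41 FPKM with siNC, with full overlap.

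Kif9, a cilium-linked kinesin, was at 91.5% of control and did not pass. Kif7, a ciliary regulator of hedgehog signalling, and Kif6, another cilium-linked kinesin, were under 1 FPKM, at 61.1% and 65.5% of control with groups that did not overlap. Kif24, a centriolar depolymerase, and Kif21b did not overlap either, at 80.2% and 85.8%. Kif26a, Kif26b, Kif27, Kif19a and Kif28 overlapped, and Kif28 had at most 3 reads in any library. Kif7 shares 20.3% of its exon bases with Ticrr and 9330171B17Rik on the other strand, and its recovered reads ran from 34 to 76 a library.

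Whole reads could be recovered for 32 of the 38 kinesins, and a second test was run on them after the FPKM results had been seen. With limma voom, 31 kinesins were tested, 15 were lower and the others did not pass, against 16.2% lower and 10.6% higher among 15103 genes. The 9 mitotic kinesins it could test were all lower, Kif14 and Kif18a among them (limma voom adjusted p = 1.28e-05 and 0.00042). For Kif14 the reads were 149, 135 and 127 against 266, 231 and 228, siSox9 against siNC. Kif6 and Kif7 were lower by this test too (limma voom adjusted p = 0.00504 and 0.0114), as were Kif12, Kif5c, Kif1a and Kif2a. Kif11, Kif20a, Kif5b, Kif21a, Kif16b and Kif13b gave no whole reads and were not in it.

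Motors named outside the Kif series were examined in the same way. Of 6 such kinesins, 4 were tested and 3 were lower, against 17.6% lower over all genes tested. Cenpe, the kinesin of kinetochores, stood at 3.27, 3.17 and 3.07 FPKM with siSox9 and 5.28, 4.97 and 5.01 FPKM with siNC, 62.3% of control (limma adjusted p = 0.000243). Kifc1 and Kifc5b, minus-end motors of the spindle, were at 74.4% and 67.3%, but they are near-identical copies whose reads may have been split between them. Kifc3, a minus-end motor of epithelial junctions and Golgi, was at 103% and did not pass.

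The partners of the mitotic kinesins fell with them. Of 19 spindle and midzone partners, 18 were tested, 17 were lower and 1, Numa1, did not pass, with a median log2 fold change of -0.61. The share lower over all genes tested was 17.6%. Plk1, the mitotic kinase, stood at 7.11, 7.02 and 7.61 FPKM with siSox9 and 13.7, 12.4 and 14.7 FPKM with siNC (log2 fold change -0.82, limma adjusted p = 0.000209). Anln, the anillin of the cleavage furrow, was at 54.5% of control and Ect2, the activator of RhoA in cytokinesis, at 54.3%. Racgap1, which forms centralspindlin with Kif23, was at 53.9%, and Prc1, the midzone bundler that binds Kif4 and Kif14, at 54.8%. Numa1, which also has a role in the interphase nucleus, was at 105%.

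Of 18 kinesin light chains and adaptors listed, 16 were tested, 2 were lower, 1 was higher and 13 did not pass, with a median log2 fold change of -0.0057. Over all genes tested, 17.6% were lower and 12.8% were higher, and the counts of this list, of dynein and of the tubulins are to be read against these shares. Mapk8ip1, a scaffold that links kinesin-1 to its cargo, was at 67.7% of control and Klc2, a light chain, at 90.9%, while Trak2, which links kinesin to mitochondria, was at 116% (limma adjusted p = 0.00177, 0.0334 and 0.00797). Klc2 lost its call without a filter (limma adjusted p = 0.0608) and with the replicate block (0.0697). Of 27 tested subunits and adaptors of cytoplasmic dynein and dynactin, the motor that runs the opposite way, 3 were lower and 3 were higher, with a median of -0.004. Hook2, an adaptor that activates dynein, rose from 12.5 ± 0.621 (SD) FPKM with siNC to 20.8 ± 0.300 (SD) FPKM with siSox9 (log2 fold change 0.69, limma adjusted p = 9.29e-05). Actr1b, a dynactin subunit, was at 76.9% of control, and Spdl1, the dynein adaptor of kinetochores, at 73.9%, and both passed the test. Of 14 tested tubulins, the building blocks of the tracks, 4 were lower and 1 was higher, with a median of -0.10. Among the lower ones were Tubg1, the gamma-tubulin that nucleates microtubules, at 83.5% of control, Tubb3 at 77.3% and Tubb6 at 87.9%.

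**Figure D4:**
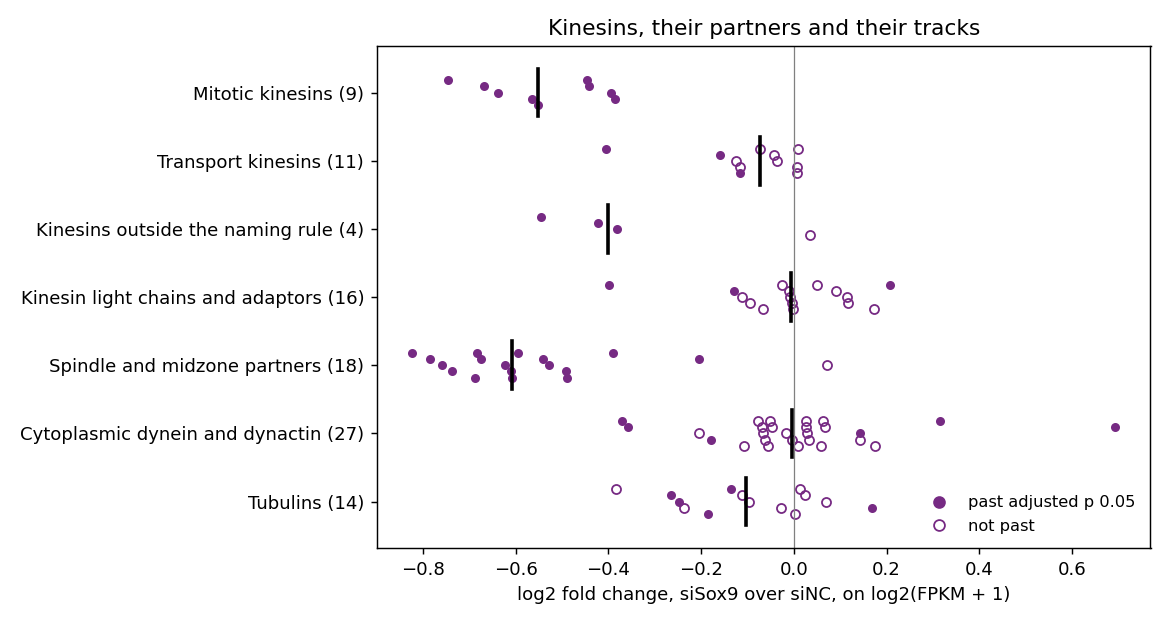
Log2 fold changes, siSox9 over siNC, on the log2(FPKM + 1) scale for the tested genes of each list, with filled points for an adjusted p under 0.05, open points for the rest and a black bar at each median. The mitotic kinesins (median -0.55) and the spindle and midzone partners (median -0.61) lie to the left of the transport kinesins (-0.073), the adaptors (-0.0057) and dynein (-0.004).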

How the data were processed

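FPKM values per gene and library were deposited by the authors in 1 table. The submitters' processing notes name mm9, Bowtie2 2.2.3, HISAT2 2.1.0 and TopHat2 without their roles, while 93.3% of the 30246 genes found in GENCODE M21 had the same position in the table as in that GRCm38 annotation, so the coordinates are given as GRCm38. How reads were assigned, and their strand, is not given in the sources used here. The siSox9 columns carry the name si3 and were taken as siSox9, the labels' siRNA other than the control. The siSox9 sequence is not shown here.

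Groups were compared with limma 3.58.1 in R 4.3.3 (trended variance) on log2(FPKM + 1) with a minimum mean of 1 FPKM, unpaired, with Benjamini-Hochberg adjustment over all of them and a threshold of 0.05. The fit was also run on simulated reads with a fixed spread and as many genes raised as lowered. That setting is simpler than these data, so it does not measure the error of the calls here. A fold change on this scale understates that of low genes. The same-numbered libraries of the 2 groups deviated together with correlations of 0.065, -0.050 and 0.0078, so the numbers were not used as pairs. Whole reads were recovered from FPKM with GENCODE M21 exon lengths: 91.0% of values above 0 came out whole within 0.02 reads, and 27948 genes were whole in all 6 libraries. limma voom on these was added after the data had been seen. FPKM sums ranged from 280916 to 306896. Libraries of 1 group differed by more than counting noise (mean chi-square per gene from 1.85 to 6.35), so none was counted as a copy.

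The members, roles, gene lists and promoter elements were chosen with earlier results of these data known. Every kinesin was reported, in every library where it passed the threshold or was among the 3 most abundant of its role, along with Sox9, Mki67 and Top2a and the 3 genes of each companion list with the largest change past the threshold. Racgap1, Prc1, Numa1 and Kifc3 were named in addition, after their values were seen, as was the per-library listing of Kif14 and Kif18a. Promoters came from RefSeq (GRCm38.p6). Alternatives were other pseudocounts, filters, scalings, roles, a replicate block and leaving out each library.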

Additional observations from a re-analysis of the deposited data

How the results depend on the processing

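In every alternative run, limma called no kinesin higher and called the 9 tested mitotic kinesins lower wherever they were tested, while without a filter Kif14 was called and Kif18a was not (limma adjusted p = 0.0574). Over all genes 3650 were called, 2118 lower and 1532 higher, and centring each library on its median changed the split to 1765 lower and 1959 higher. The lower calls over all genes came to 1332 on the TPM scale and 1376 with a minimum of 5 FPKM, where 5 kinesins were called, all 5 lower, 3 of them mitotic. At that minimum, 3 mitotic and 7 transport kinesins were tested. Kif11 reached it only in the siNC group (mean 7.18 FPKM against 3.88 with siSox9), so its call there is not independent of the filter. On the TPM scale 1 transport kinesin was lower. The mitotic median log2 fold change of -0.55 moved to -0.69 (pseudocount 0.1), -0.45 (no filter), -0.64 (minimum 5 FPKM), -0.63 (TPM), -0.49 (quantile normalization), -0.71 (limma voom) and -0.50 (wider roles, with Kif2a and Kif24 as mitotic and Kif21a and Kif21b as transport). The transport median of -0.073 moved to -0.036 (minimum 5 FPKM), -0.050 (TPM), -0.046 (median-centred) and -0.043 (limma voom). The mitotic minus transport difference of -0.48 moved to -0.61 (pseudocount 0.1), -0.39 (no filter), -0.60 (minimum 5 FPKM), -0.58 (TPM), -0.43 (quantile normalization), -0.67 (limma voom) and -0.41 (wider roles). Leaving out 1 library at a time, the mitotic median ranged from -0.60 to -0.50, the transport median from -0.10 to -0.057 and their difference from -0.50 to -0.42, with 12 to 14 kinesins lower. All genes called ranged from 2431 to 3653, the lower ones from 1488 to 2089 and the higher ones from 943 to 1564, the fewest without siSox9 replicate 2. The cause of these shifts was not tested. Kinesins that were not called changed sign: Kif1bp was at 0.022 (TPM), 0.021 (median-centred) and 0.026 (quantile), and Kif13a at 0.0056 (quantile). Leaving out 1 library at a time, Kif1bp ranged from -0.044 to 0.028, Kif1b from -0.013 to 0.026, Kif1c from -0.063 to 0.0065, Kif3a from -0.025 to 0.033 and Kif3b from -0.014 to 0.030. With the replicate block 13 kinesins were lower, Kif21a alone losing its call (limma adjusted p = 0.0671), and 3262 genes were called. Kif28, Kif19a, Kif17, Kif27 and Kif26a rest on at most 34 reads in any library, and with 3 libraries a group and 1 siRNA other effects of that siRNA cannot be told apart from those of Sox9.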

Other observations

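Ratios of a kinesin sorted as mitotic to one of the same family sorted as transport or other do not depend on library scaling. Kif2a, sorted among the others, also acts at spindle poles and carries a gene ontology term of that kind. The pairs were chosen after their values were seen, so they are given without a test. In the kinesin-13 family of depolymerases, Kif2c RNA was 20.7%, 26.5% and 24.6% of Kif2a RNA in the siSox9 libraries and 36.8%, 33.3% and 38.1% in the siNC libraries. In the kinesin-4 family, Kif4 was 49.4%, 56.4% and 60.9% of Kif21a with siSox9 and 90.8%, 86.7% and 85.8% with siNC. In the kinesin-3 family, Kif14 was 4.75% ± 0.36 (SD, n = 3) of Kif1b with siSox9 and 8.57% ± 0.67 with siNC. The kinesin-12 family ran the other way: Kif15 was 80.2%, 81.7% and 115% of Kif12 with siSox9 and 71.4%, 64.9% and 63.1% with siNC, both genes having fallen. Among the conventional kinesins, neither of which is mitotic, Kif5c was 2.07% ± 0.21 of Kif5b with siSox9 and 3.17% ± 0.17 with siNC.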
